A study of Daphnia magna with 20 samples.

Results

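The proteins of the mitochondrial ribosome, with the bacterial-type and otherwise unassigned ribosomal proteins, were followed in RNA from whole Daphnia magna, a freshwater water flea. Members were all names in the deposited expression table that hold the words ribosomal protein do not begin with the cytosolic prefixes 40s or 60s, and hold neither kinase nor transferase. The rule found 74 of the 7784 names. The animals were kept for 21 days in a vehicle control, in a dispersion of an ethylene acrylic acid copolymer at 2.3e11 particles per litre (nano_low) or at 2.3e12 particles per litre (nano_high), or in fumed silica at 2.3e12 particles per litre (silica), a mineral particle at the same number as the higher copolymer level. Each of these 4 groups had 5 libraries, and every library came from pooled whole daphnids. The protocol placed 1 daphnid in each of 15 jars per level. Animals were fed a green alga and a yeast-based suspension. The labels give no strain or genotype and call the animals neonates, while the protocol carries the exposure to day 21, so the age at sampling is not settled. Nothing in the labels says how many animals each pool held or which libraries shared a sequencing pool of 8.

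Mitochondria keep their own ribosome, which translates the few proteins still encoded by mitochondrial DNA, all of them parts of the respiratory chain and the ATP synthase in animals. Its proteins are encoded in the nucleus, made in the cytosol and imported, and its subunits are called 28s (small) and 39s (large) in animals, where the bacterial counterparts are called 30s and 50s. The ribosome descends from the bacterial one, but animal mitochondria have added proteins with no bacterial counterpart to both subunits.

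By name, 65 members were mitochondrial, namely 29 of the small subunit, 35 of the large subunit and var1, a ribosomal protein known from budding yeast, where mitochondrial DNA encodes it. Of these, 27 began with 28s, 28 with 39s, and 10 had no prefix. The other 9 were not mitochondrial by name, and the working label covers them only loosely. They comprised 30s ribosomal protein s8, the sole bacterial-type name, since no name began with 50s. They also comprised 2 names for s27a, which is made fused to ubiquitin and belongs to the cytosolic small subunit, and 6 names without a prefix, among them a pair for l40e, which is likewise made as a ubiquitin fusion for the cytosolic large subunit. For l40e this describes the protein that the name refers to. The table itself did not settle the compartment of 30s s8 or of the names without a prefix. No sequence for the names was used here.

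Library totals ran from 7912434 to 95906857 estimated counts, and each nano_high library was deeper than each control library. In a principal component analysis of all tested names, 5 libraries lay at the negative end of the first component, which held 38.9% of the variance. They were control 4 and 5, nano_low 1, and nano_high 4 and 5. Each was also among the 5 libraries with the lowest summed level of mitochondrial ribosomal proteins, as described below. Levels are given in CPM, estimated counts per 1000000 of a library's scaled total. Transcript lengths were not used, so a CPM also depends on length and levels cannot be compared between genes. A difference is called where edgeR's quasi-likelihood p, adjusted after Benjamini and Hochberg over the 7564 tested names, is under 0.05. In pooled whole animals, fewer cells of a type and less RNA per cell cannot be told apart.

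Across the 20 libraries the mitochondrial names had a median of 31.9 CPM. The small-subunit names had a median of 33.0 and the large-subunit names 31.9. By CPM, which also depends on transcript length, the highest mitochondrial name was 28s s11, at 160 CPM, with libraries between 123 and 184. It is a small-subunit protein with a bacterial counterpart. The next were 28s s30 at 95.4 and 28s s5 at 71.7 CPM. Mammalian structures place s30 in the large subunit, although its name counts it with the small. In the large subunit the highest names were l44, at 59.2 CPM, l38, at 55.5, and l7/l12, the stalk protein that binds translation factors, at 55.1. The top of the whole member list was not mitochondrial by name. It was ubiquitin-40s s27a at 1180 CPM, followed by l40e (ribosomal protein ubq/l40e) at 248 and the ubiquitin/40s s27a fusion at 179.

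Some names were close to the detection limit. 28s s36 reached 7 estimated counts over all 20 libraries, with 2, 2, 2 and 1 in control, nano_low, nano_high and silica, and was the only member not tested. In mammals the protein of this name is a component of the 2-oxoglutarate dehydrogenase complex. 39s l42 had a mean of 0.159 CPM, and sphaerius sp. apv-2005/ribosomal protein s29e, named for a cytosolic-type small-subunit protein, had 0.612 CPM. Among the mitochondrial names, 6 subunit numbers occurred under a pair of names with unequal levels. For l42, 39s l42 stood at 0.159 CPM and mitochondrial l42/arp2_g6930 at 22.9, and for s26 the levels were 33.0 and 1.13. For s29, the GTP-binding protein also known as DAP3, the 28s name had 15.1 CPM and s29/arp2_g2984 had 38.9. Whether such pairs are copies, isoforms or fragments was not given by the table, and reads that fit both names could have been split between them.

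The member called in the most comparisons, 3 of 5, was 30s ribosomal protein s8/arp2_g2243. In bacteria, protein S8 binds ribosomal RNA early in small-subunit assembly. Control libraries held 90.8, 87.5, 98.8, 110 and 105 CPM. In nano_low the values were 57.2, 34.5, 41.8, 29.4 and 37.5 CPM. In nano_high they were 26.9, 31.8, 26.6, 37.3 and 26 CPM. All 10 copolymer libraries lay below all 5 control libraries, a separation downward seen in 1.73% of all tested names for nano_low and 4.79% for nano_high, while the copolymer levels overlapped each other. Silica libraries held 60, 75.6, 69.7, 50.7 and 57.1 CPM. Every silica library lay below every control library and above every nano_high library, and 1 nano_low library (57.2) reached into the silica range. The order of the group means was therefore control (98.5 ± 9.48, SD, n = 5), silica (62.6 ± 9.97), nano_low (40.1 ± 10.6) and nano_high (29.7 ± 4.83).

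**Figure D1:**
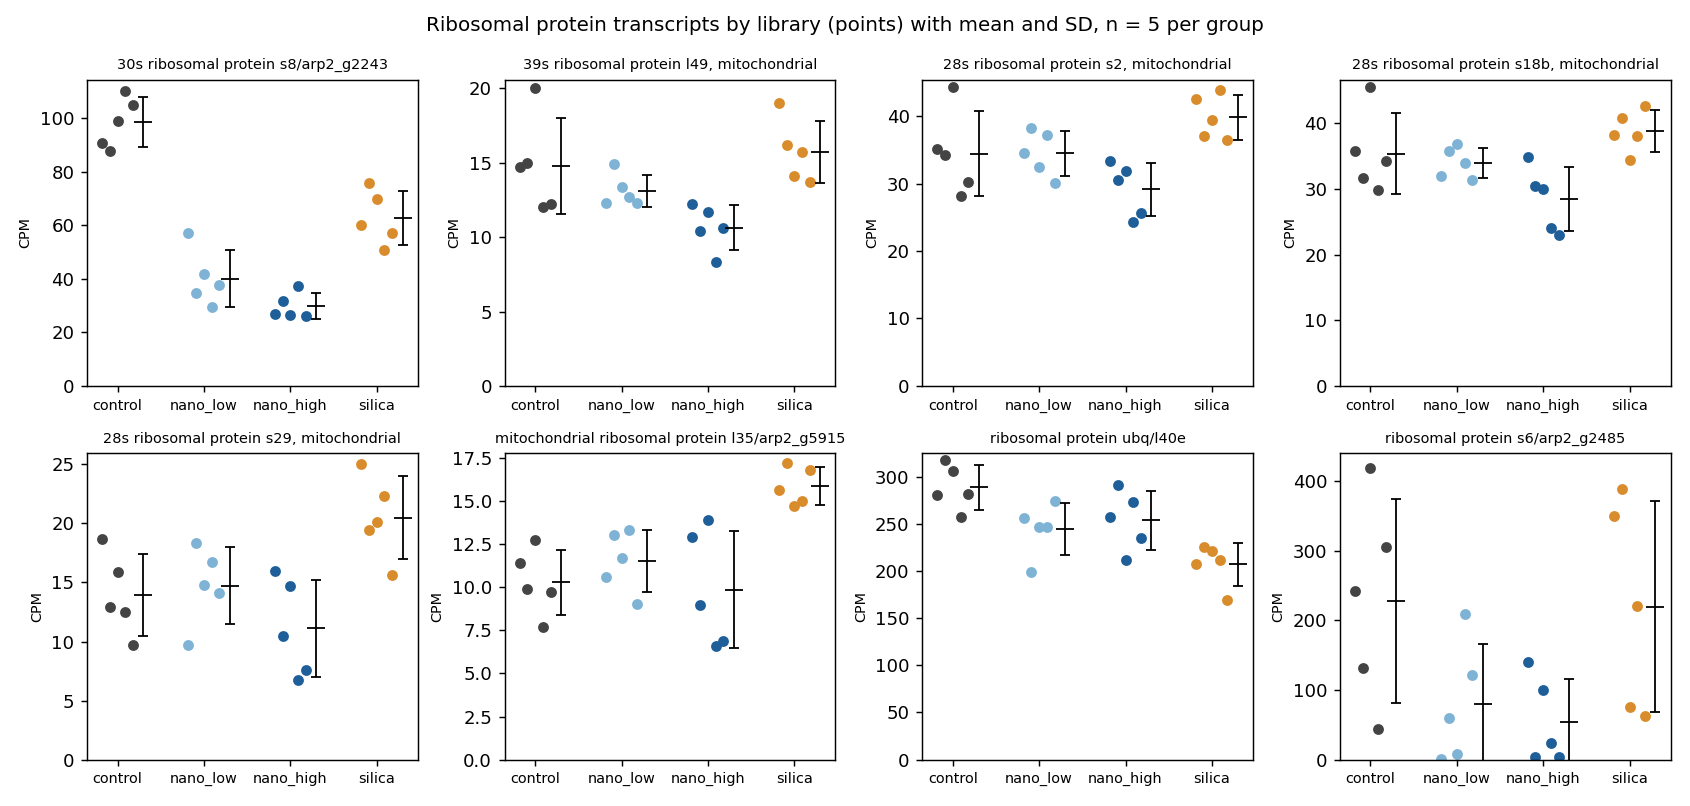
CPM in each of the 20 libraries for members with a called difference and for s6/arp2_g2485, with 1 point per library, grouped as control, nano_low, nano_high and silica, and lines for group means with SD, each panel starting at 0, where lower error bars are cut off. For 30s s8 the control libraries (87.5 to 110) lie above all others, while for s6/arp2_g2485 every group spans a wide range.

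Under the copolymer, s8 was 2.46-fold lower in nano_low than in control, a log2 fold change of -1.30 with an SE of 0.16 (edgeR adjusted p = 0.000937). It was 3.31-fold lower in nano_high, a log2 fold change of -1.73 with an SE of 0.16 (edgeR adjusted p = 1.27e-05). Both comparisons use the same control libraries. The step from nano_low to nano_high was -0.43 (SE 0.16) and was not called (edgeR adjusted p = 0.644). Against silica at the same particle number, s8 was 2.11-fold lower in nano_high (-1.08, SE 0.16, edgeR adjusted p = 0.00249). These 3 calls were kept under all 21 alternative settings and left-out libraries run for each comparison. The silica value, 1.57-fold below control (-0.65, SE 0.16), just missed the threshold (edgeR adjusted p = 0.0571) although the groups did not overlap, as was so for 5.17% of all tested names on the lower side. It passed in 5 of 21 alternatives, and adjusted p over them ran from 0.00388 to 0.257.

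The names starting with 40s and 60s, the cytosolic ribosomal proteins, had medians below 0 in the exposed groups, given further on, and s8 was set against them library by library. The cytosolic names summed to 68187 to 81597 CPM in control, 47682 to 70650 in nano_low, 54006 to 74208 in nano_high and 51069 to 60954 in silica. Per 1000 CPM of that sum, s8 had 1.29 ± 0.0623 in control, 1.12 ± 0.0969 in silica, 0.671 ± 0.1 in nano_low and 0.48 ± 0.0247 in nano_high (SD, n = 5 each). On this ratio nano_high (0.438 to 0.503) lay below nano_low (0.547 to 0.809) in every library, and silica (0.993 to 1.24) overlapped control (1.19 to 1.35). The ratio was chosen after the values had been seen and was not tested. It was taken for no other name, so no share of all names stands beside this separation.

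**Figure D2:**
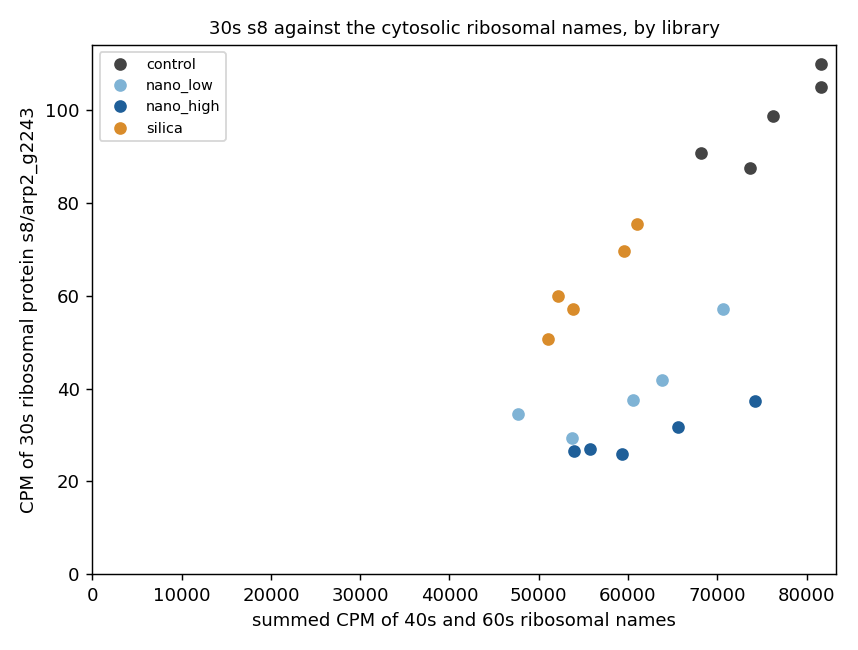
30s ribosomal protein s8 (CPM, vertical axis) against the summed level of the cytosolic ribosomal protein names (CPM, horizontal axis), 1 point per library, coloured by group. The nano_high libraries (26 to 37.3 CPM) lie below the silica libraries (50.7 to 75.6 CPM), and the control libraries (87.5 to 110 CPM) lie at the upper right.

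The mitochondrial ribosomal proteins stood near control in nano_low. There 0 of the 64 tested mitochondrial names were called against control by edgeR, and 2 had an unadjusted p under 0.05, both higher, where 6.94% of all tested names were. DESeq2 also called none of the 64, where it called 3.0% of all tested names. Over all members s8 was the sole call, 1 of 73, where 0.621% of all tested names were called. The median log2 fold change of the mitochondrial names was 0.07, against 0.01 over all tested names, and 17 of 64 lay below 0, against 48.8% of all names. Small-subunit and large-subunit names had medians of 0.08 and 0.07.

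The largest rises in estimate in nano_low were not called. 28s s9/arp2_g3215, named for a small-subunit protein with a bacterial counterpart, had 24.2 ± 2.45 CPM in control and 30.3 ± 3.72 in nano_low (0.33, SE 0.10, edgeR adjusted p = 0.128). Protein l50, a mitochondrial large-subunit protein by name, had 17.2 ± 5.32 and 22.8 ± 2.94 CPM (0.40, edgeR adjusted p = 0.344). In both cases the groups overlapped.

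In nano_high, 2 of 73 members fell against control, where 10.1% of all tested names were called, 4.89% as lower. Beside s8 this was 39s l49, a large-subunit protein of animal mitochondria with no bacterial counterpart. Control libraries held 14.7, 15, 20.0, 12.0 and 12.2 CPM of l49, and nano_high libraries 12.2, 10.4, 11.7, 8.30 and 10.6. The groups overlapped, with nano_high 1 in the range of control 4 and 5. The log2 fold change was -0.48 (SE 0.14, edgeR adjusted p = 0.0356). Without control 1, 2 or 3, or nano_high 2, 3, 4 or 5, the call was lost. It was also lost with library total as a covariate, where 3.68% of all names were called. The same held with only nano_high and control in the fit (4.92% of all names). Adjusted p over the 21 alternatives ran from 0.00198 to 0.12.

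The 64 tested mitochondrial names, l49 included, had a median of -0.06 in nano_high, with 40 below 0, against 47.5% of all names, and unadjusted p was under 0.05 for 7 names as lower and 1 as higher, against 11.9% and 13% of all tested names. The small-subunit median was -0.05 and the large-subunit median -0.08. Names numbered up to 21 in the small subunit and up to 36 in the large, most of which have bacterial counterparts, had medians of 0.02 and -0.03. Those with higher numbers, mostly additions of the mitochondrial ribosome, had -0.08 and -0.17. The same split gave 0.21 and 0.26 against 0.25 and 0.20 in silica against control, and the difference between these sets was not tested. The names with the largest rises in estimate were again s9/arp2_g3215 (0.20, edgeR adjusted p = 0.196) and l50 (0.23, edgeR adjusted p = 0.471), read against the same control libraries as in nano_low. With the first component as a covariate, 21 members were called lower, 19 of them mitochondrial, and none higher. Then 23.1% of all names were called in either direction, and the share called lower was not taken.

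**Figure D3:**
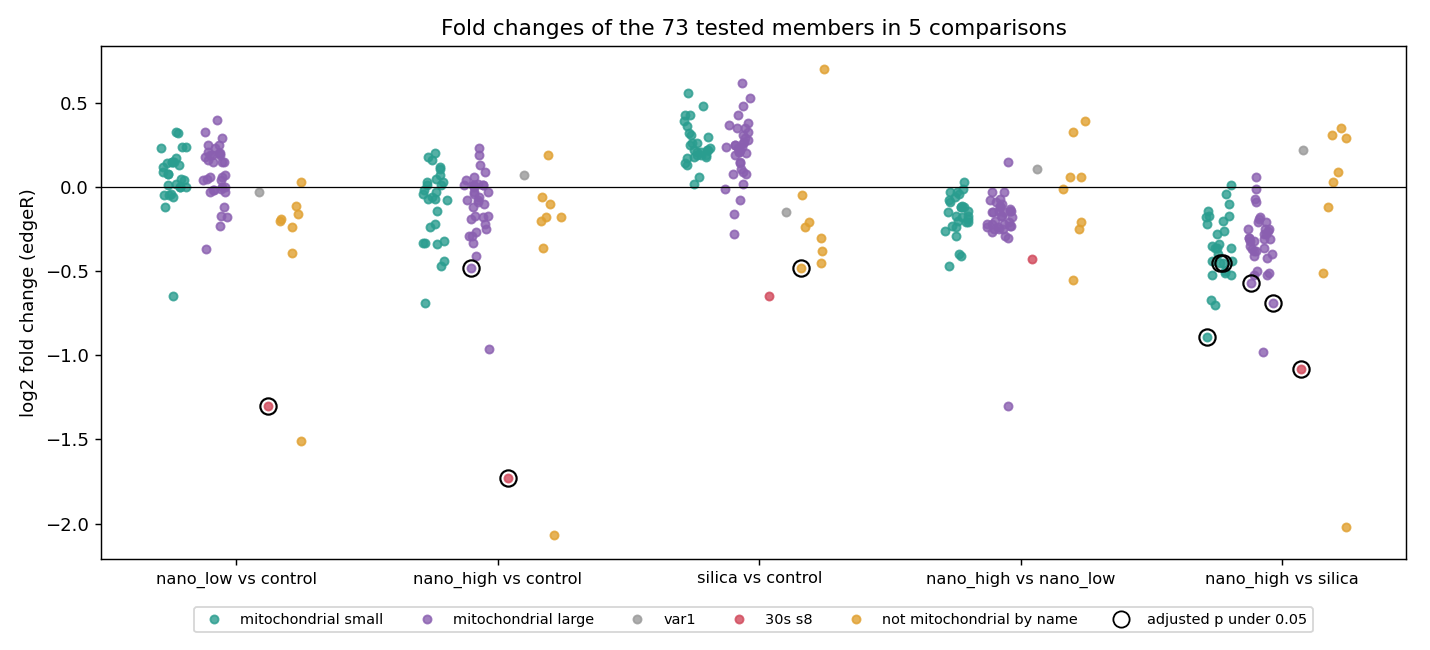
Log2 fold change (edgeR, vertical axis) of each of the 73 tested members in the 5 comparisons, 1 point per name, coloured by class, with a ring around members with an adjusted p under 0.05. The mitochondrial names lie mostly above 0 for silica against control (median 0.23) and mostly below 0 for nano_high against silica (median -0.33). In nano_low and nano_high against control, 30s s8 lies below all mitochondrial names, at -1.30 and -1.73. The uncalled s6/arp2_g2485 lies lower still, at -1.51 and -2.07.

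In silica, 1 of 73 members fell against control, where 0.701% of all tested names were called. It was ribosomal protein ubq/l40e. Control libraries held 280, 317, 306, 257 and 282 CPM and silica libraries 207, 225, 221, 212 and 169, so the groups did not overlap. The log2 fold change was -0.48 (SE 0.11, edgeR adjusted p = 0.0437). This call sat near the threshold: it was lost in 13 of 21 alternatives, among them the omission of control 2, 3, 4 or 5 or of any silica library (adjusted p 0.0594 to 0.13), and the range over all of them was 0.000918 to 0.179. With 1 of these libraries left out, 0.0% to 0.119% of all tested names were called. The ubiquitin/40s s27a fusion had a like difference, 201 ± 19.7 CPM in control and 147 ± 12.5 in silica (-0.45, edgeR adjusted p = 0.0504). The other s27a name, ubiquitin-40s s27a, had 1327 ± 90.2 and 1080 ± 84.3 CPM (-0.30, edgeR adjusted p = 0.127).

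The mitochondrial names had the opposite sign of estimate in silica. Of the 64 tested, 59 had an estimate above control, with a median log2 fold change of 0.23, while 47.1% of all names lay below 0. edgeR called 0 of the 64, although 10 had an unadjusted p under 0.05, all higher, where 11.0% of all tested names did so. The largest estimates with a mean of at least 5 CPM were those of l35/arp2_g5915, a large-subunit protein (10.3 ± 1.91 CPM in control, 15.9 ± 1.08 in silica, 0.62, SE 0.20, edgeR adjusted p = 0.111), and 28s s29 (14 ± 3.46 and 20.5 ± 3.49 CPM, 0.56, SE 0.24, edgeR adjusted p = 0.184). For l35/arp2_g5915 every silica library exceeded every control library, as in 3.52% of all tested names, and it passed the threshold in 1 of 21 alternatives. The median over all members was 0.22. It became 0.03 without the 5 libraries at the negative end of the first component, 2 of which are controls, and -0.09 with that component as a covariate. In the same comparison the 69 tested cuticle and collagen names had a median of 0.65, with 56 above 0, the 12 tested muscle names a median of 0.26, with 10 above 0, and the 5 tested yolk and germline names a median of -0.94, with all 5 below 0. Their part in the result was not tested.

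Between the copolymer levels no member was called, where 0.0% of all tested names were called. The DESeq2 count of members was also 0, where it called 0.0529% of all tested names. At an unadjusted p under 0.05 edgeR placed 4 members lower in nano_high (s8, s28, l49 and s18b) and none higher, while over all names 244 (3.23%) were lower and 267 higher. Of the 64 mitochondrial names, 61 had an estimate below 0, with a median of -0.17, against 49.2% of all names. 28s s28 had 31.8 ± 5.56 CPM in nano_low and 23.0 ± 4.21 in nano_high (-0.47, SE 0.19, edgeR adjusted p = 0.662). For l49 every nano_high library lay below every nano_low library (-0.30, edgeR adjusted p = 0.733), and 0.595% of all tested names had such a separation. The median over all members moved to -0.03 without the 5 libraries named above.

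Most calls among members were made between nano_high and silica, the particles given at the same number per litre. Here 6 of 73 members were lower in nano_high and none higher, where 5.35% of all tested names were called, 2.99% as lower. They were s8 and 5 mitochondrial names, 3 of the small subunit (s2, s18b and s29) and 2 of the large (l35/arp2_g5915 and l49). Proteins s2 and s18b have bacterial relatives, s18b being 1 of several s18 forms in animal mitochondria.

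For 28s s2 the nano_high libraries held 33.4, 30.6, 31.8, 24.3 and 25.7 CPM and the silica libraries 42.6, 37.0, 39.4, 43.9 and 36.4. The groups did not overlap, and the log2 fold change was -0.45 (SE 0.12, edgeR adjusted p = 0.0348). For l35/arp2_g5915 nano_high had 12.9, 8.96, 13.9, 6.56 and 6.90 CPM, and silica had 15.6, 17.2, 14.7, 15 and 16.8. Each silica library was again above each nano_high library (-0.69, SE 0.19, edgeR adjusted p = 0.0474). For l49 the silica libraries held 19, 16.2, 14.1, 15.7 and 13.7 CPM, all above the nano_high values given before (-0.57, SE 0.14, edgeR adjusted p = 0.0277). The other called names overlapped between groups. For 28s s29 nano_high had 16.0, 10.5, 14.7, 6.77 and 7.61 CPM and silica 25.0, 19.4, 20.1, 22.3 and 15.6 (-0.89, SE 0.24, edgeR adjusted p = 0.0372). For 28s s18b the means were 28.4 ± 4.91 and 38.8 ± 3.16 CPM (-0.45, SE 0.12, edgeR adjusted p = 0.0376). In s2, s18b, s29 and l35/arp2_g5915 nano_high 4 and 5, which are among the 5 libraries at the end of the first component, had the lowest values of the nano_high group.

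Control lay between nano_high and silica in the mean for s2 (34.5 ± 6.3 CPM), s18b (35.4 ± 6.13), s29 (14 ± 3.46), l35/arp2_g5915 and l49. Over the 64 mitochondrial names, 61 had an estimate below 0 in nano_high against silica, with medians of -0.36 in the small and -0.31 in the large subunit, against 51.4% of all names and a median of -0.01. Unadjusted p was under 0.05 for 23 of the 64, all lower, where 11.7% of all tested names were lower on that measure. In 7 of the 64, nano_high lay below silica in every library, where 4.27% of all names did.

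These calls depended on which libraries entered and on the model, as did the share of all names called. Leaving out 1 library gave 1 to 13 called members. The count was 13 without nano_high 1, where 8.57% of all tested names were called, and 11 without nano_high 3, where 8.12% were. It was 3 without silica 2, 3 or 5 (3.97%, 4.23% and 2.38% of all names), and 1 without nano_high 2, 4 or 5 or silica 1 or 4 (1.02% to 1.96%). The call of s8 alone was left with library total as a covariate (0.185% of all names) and with only nano_high and silica in the fit (0.476%). The nano_high libraries held 39087882 to 95906857 estimated counts, the silica libraries 7912434 to 54862334, and the part of depth was not tested further. Without the 5 libraries of the first component 1 member, s8, was called (0.502% of all names) and the median over members was -0.13 in place of -0.32.

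Levels of yolk and germline, cuticle and muscle names also differed between these libraries. The 6 yolk and germline names, of which 5 were tested and the lowest, protein piwi/arp2_g165, was near 0 at 0.0481 CPM, summed to 20405 to 140403 CPM in nano_high and to 10153 to 28199 in silica. In control they summed to 27454 to 80110 and in nano_low to 14383 to 62446. The 73 cuticle and collagen names, 1 of them at 0 in every library, summed to 13243 to 21741 CPM in nano_high, 15713 to 32139 in silica, 11032 to 23110 in control and 8485 to 27468 in nano_low. The 13 muscle names, 1 of them at 0 in every library, summed to 14381 to 24386, 17591 to 24651, 12013 to 21399 and 10898 to 24471 in the same order. Their part in the results was not tested.

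Within each group the mitochondrial names tended to be high or low together in a library. The 64 tested names, with s36, summed to 2388, 2115, 2824, 1667 and 1710 CPM in control. The sums were 1812, 2540, 2236, 2645 and 2234 in nano_low, and 2521, 2088, 2500, 1550 and 1638 in nano_high. In silica they were 2749, 2628, 2457, 2601 and 2329. The group means were 2141 ± 485, 2293 ± 325, 2059 ± 460 and 2553 ± 163 (SD, n = 5), and every pair of groups overlapped. The mitochondrial names held 0.139% to 0.291% of the estimated counts of a library.

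Single libraries stood at the top or bottom for most names at once. Control 3 was the highest control library for 58 of the 64 names, and control 4 and 5 were the lowest for 38 and 24. In nano_low, library 1 was the lowest for 50, and in nano_high library 4 was the lowest for 50 and library 1 the highest for 41. The median coefficient of variation of the 64 names was 24.9% in control and 24.8% in nano_high, but 15.5% in nano_low and 10.8% in silica. For the cytosolic names the same medians were 9.82%, 13.9%, 16.2% and 11.5%, and over all tested names 17.8%, 20.0%, 19.5% and 14%, in the order control, nano_high, nano_low and silica.

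The 5 lowest sums belonged to the 5 libraries at the negative end of the first component (scores -54.0, -55.2, -55.1, -53.2 and -33.6 for control 4, control 5, nano_low 1, nano_high 4 and nano_high 5). The mitochondrial names were themselves among the names that define the component. The ratio of cytosolic to mitochondrial sums ranged from 18.8 in nano_low 2 to 48.9 in control 4. Small and large subunit kept a near constant ratio, 0.969 ± 0.0197 over all 20 libraries (SD), with a range of 0.932 to 1.01.

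**Figure D4:**
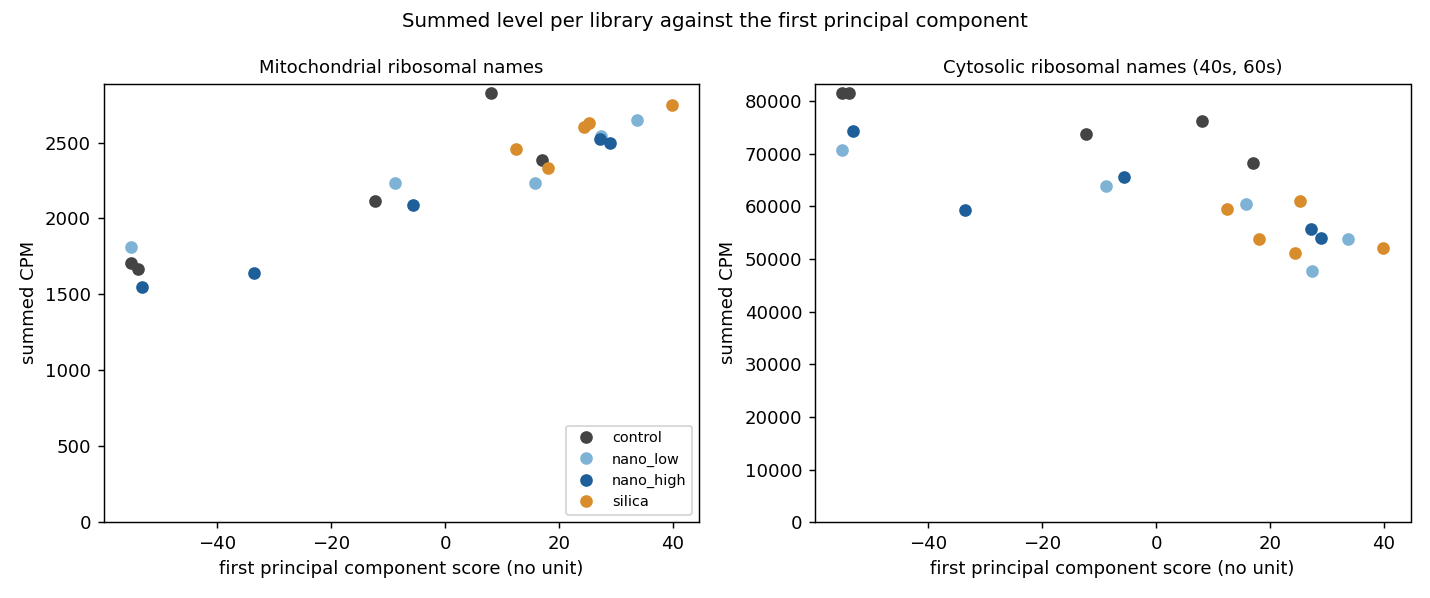
Summed CPM of the mitochondrial ribosomal protein names (vertical axis) against the score of each library on the first principal component of all tested names (horizontal axis), 1 point per library, coloured by group. The 5 libraries with the most negative scores (-55.2 to -33.6) have the 5 lowest mitochondrial sums (1550 to 1812 CPM), and no silica library is among them.

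Among members with a mean of at least 5 CPM, 1 name had the highest coefficient of variation in each group, from 64.2% in control to 115% in nano_high, while no other such member passed 43.0% in any group. Ribosomal protein s6/arp2_g2485 held 242, 131, 418, 43.5 and 305 CPM in control, 0.912, 60.2, 7.80, 209 and 121 in nano_low, 140, 3.53, 100, 23.6 and 4.19 in nano_high, and 350, 389, 75.4, 221 and 62.6 in silica. Every pair of groups overlapped. In control, nano_low and silica, libraries of the same group spanned more CPM than the 4 group means did (54.3 to 228). The nano_high libraries (3.53 to 140) spanned less. The log2 fold changes of -1.51 (SE 1.08) in nano_low and -2.07 (SE 1.10) in nano_high were not called (edgeR adjusted p = 0.541 and 0.256), nor was nano_high against silica at -2.02 (SE 1.10, edgeR adjusted p = 0.251). With the first component as a covariate, nano_high against control became -3.26 and passed (edgeR adjusted p = 0.0215). The table does not say which ribosome this s6 belongs to.

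The remaining members named for their rank had no call. Protein 39s l47, a large-subunit protein, was 0.15 higher in nano_high than in nano_low on the log2 scale (edgeR adjusted p = 0.883). Ribosomal protein ubq/l40e/arp2_g2911, a second l40e name, was 0.33 higher in nano_high than in nano_low (edgeR adjusted p = 0.821) and 0.31 higher than in silica (edgeR adjusted p = 0.467). The ubiquitin/40s s27a fusion was 0.35 higher in nano_high than in silica (edgeR adjusted p = 0.0514), and passed in 5 of 21 alternatives, with adjusted p from 0.00935 to 0.308.

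Other genes of mitochondrial gene expression were read from lists made by name. Of 24 names for mitochondrial translation factors and tRNA ligases, none was called in nano_low, nano_high or silica against control or between the copolymer levels, and 3 were lower in nano_high than in silica, where 2.99% of all tested names were called lower. These were the mitochondrial arginine--trna ligase, which charges arginine tRNA (23.2 ± 4.4 CPM in nano_high, 36.9 ± 3.53 in silica, -0.67, SE 0.14, edgeR adjusted p = 0.0155), the cysteine--trna ligase (-0.37, edgeR adjusted p = 0.0381) and ribosome-binding factor a, an assembly factor of the small subunit (23.8 ± 2.37 and 31.1 ± 0.689 CPM, -0.39, edgeR adjusted p = 0.0128). The list had a median of -0.23 in that comparison and of 0.21 in silica against control. Of 13 names for mitochondrial RNA processing and ribosome assembly, 1 was lower in nano_high than in silica, pentatricopeptide repeat-containing protein 1, an RNA-binding protein (26.4 ± 2.71 and 35.1 ± 2.47 CPM, -0.41, edgeR adjusted p = 0.0101). Aminomethyltransferase and hydroxymethyltransferase names stood in this list by wording alone. Calls in these lists were not followed under the alternative settings. In nano_high against silica 5.35% of all names were called, but 0.185% with library total as a covariate. The share was 0.476% with 2 groups in the fit and 0.502% without the 5 libraries of the first component.

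Of the proteins encoded by mitochondrial DNA, 1 name matched the list, nadh-ubiquinone oxidoreductase chain 4l, a subunit of respiratory complex I. Its level was 177 ± 52.9 CPM in control, 80.1 ± 45.9 in nano_low, 46.3 ± 17.8 in nano_high and 156 ± 37.4 in silica. It fell in nano_high against control (-1.93, SE 0.34, edgeR adjusted p = 0.00266) and was lower there than in silica (-1.75, SE 0.34, edgeR adjusted p = 0.0108). The nano_low value of -1.14 was not called (edgeR adjusted p = 0.119). Calls of chain 4l were likewise not followed under the alternative settings. Libraries were made from poly-A RNA, so the level of a mitochondrial transcript here also depends on its poly-A tail.

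Set beside the mitochondrial names, 17 of the 99 tested cytosolic names were called lower than control in nano_low, 40 in nano_high and 27 in silica, while 40, 370 and 42 of all 7564 tested names were. Their medians were -0.39, -0.38 and -0.47. The mitochondrial medians in these comparisons were 0.07, -0.06 and 0.23, with 0, 1 and 0 called lower. In nano_high against silica the cytosolic median was 0.11 with 3 called higher and 0 lower, and the mitochondrial median was -0.33 with 5 called lower. Of all 7564 tested names, 179 were called higher and 226 lower there. Because ribosomal proteins are short, names of other short proteins were read as well. The 61 tested short-protein names had medians of -0.13, -0.13 and -0.14 against control in nano_low, nano_high and silica, and -0.02 in nano_high against silica, while 27 long-protein names had 0.18, 0.39, 0.34 and -0.04. The part of transcript length in these values was not tested.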

How the data were processed

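RNA from pooled whole Daphnia magna was sequenced as stranded poly-A libraries, per the labels' protocols. The deposited table held estimated counts for 7784 names in 20 libraries, and the submitters' processing notes list Salmon 0.12.0 and R 3.4.3 as the authors' tools. The genome build and transcript annotation were not given in the sources used here. Values were rounded to whole numbers. Names that reached 1 in 5 or more libraries (7564) were tested, and 220 were left out. A model with 1 mean per group was fitted over all 20 libraries with edgeR 4.0.16 (TMM scaling, quasi-likelihood test, two-sided, R 4.3.3), with Benjamini-Hochberg adjustment over all tested names and a threshold of 0.05. CPM used TMM-scaled totals. The standard error of a log2 fold change is its size divided by the square root of the F statistic. A prior count of 2 was added for principal components of log2 CPM. Alternatives used DESeq2 1.42.0 and limma 3.58.1 (on log2(CPM + 1)). Figures were drawn with matplotlib 3.10.9.

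Members were all names with ribosomal protein that do not start with 40s or 60s and hold neither kinase nor transferase. Those named are s8, every called member, the 2 largest rises and falls per comparison among members with a mean of at least 5 CPM, the 3 highest and 3 lowest, and the untested one, with other members of levels or of paired names given as examples chosen after their values were seen. The members and lists were chosen with earlier results of these data known. Nothing says that libraries of a group came from separate batches of animals, so p-values measure the spread between these libraries, which may be technical in part. None of 40 pairs of libraries within groups was identical. Replicate numbers were shared between groups but did not pair the libraries. On simulated counts for nano_high against control over 7564 names, 87 of 100 names changed 2-fold and 43 of 100 changed 1.5-fold were recovered, with 7 false calls. The changed names were drawn from those with a mean of at least 5 CPM, and the names varied independently.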

Additional observations from a re-analysis of the deposited data

Results flagged for a closer look

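Protein l50 (gm06185p, mitochondrial ribosomal protein l50, re06140p) had 1 control library far above the others. Control 3 held 26.2 CPM, while the other control libraries lay between 13 and 16.8. The gap to the next library was 0.712 of the range of the group, against a critical value of 0.71 for 5 samples. Of 76 groups examined this was 1, and chance alone marks about 1 in 20. Control 3 was also the highest control library for 58 of the 64 mitochondrial names.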

How the results depend on the processing

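Direction and call of s8 held in nano_low, nano_high and nano_high against silica under each alternative run. The count of called members moved more. With the first component as a covariate it was 2 in nano_low (2.47% of all names), 21 in nano_high (23.1%) and 0 in silica against control (0.0%). The silica median over members then became -0.09. With library total as a covariate the count was 1 in nano_high (3.68% of all names), 0 in silica (0.0132%) and 1 in nano_high against silica (0.185%). With 2 groups in the fit the count was 1 in nano_high (4.92% of all names) and 1 in nano_high against silica (0.476%). In silica it was 4 (3 lower, 1 higher, where 5.3% of all names were called). DESeq2 called 4 members in silica (5.27% of all names) and 12 in nano_high against silica (10 lower, 2 higher, 12.1% of all names). In silica limma called 3 (0.912%). The silica count was 2 with DESeq2's size factors (0.793%), without a filter (0.726%), with a stricter filter (0.856%) or after thinning to the smallest total (0.798%). Without the 5 libraries at the negative end of the first component, 0 were called in silica (0.0% of all names) and 1 in nano_high against silica (0.502%). Leaving out 1 library gave 1 to 3 members in nano_high (1 without control 1, 2 or 3 or nano_high 2, 4 or 5), where 5.46% to 12.8% of all names were called. In silica it gave 3 without control 1 (1.75% of all names) and 0 without any other library (0.0% to 0.119%). In nano_high against silica it gave 1 to 13 (1.02% to 8.57%). The replicate numbers did not pair the libraries: 8 of 30 same-number pairs had a correlation of deviations over 0.1, with a median of 0.013 against 0.00261 for different numbers, and 3 of 20 libraries correlated best with their own number. With the replicate block the counts were 1, 3, 0, 0 and 8 in the order of the report's 5 comparisons. The shares of all names called were then 0.172%, 8.08%, 0.0%, 0.0% and 3.53%. No alternative gave a called member between the copolymer levels. The median over members ran from -0.07 to 0.17 in nano_low and from -0.17 to 0.06 in nano_high against control, so its sign turned in both. Signs also turned for uncalled values: l47 in nano_high against nano_low was -0.0 without nano_high 4 (up to 0.26 without other libraries), s6/arp2_g2485 there was 0.07 with the component as a covariate and ran from -1.27 to 0.19 (without nano_low 4) with 1 library left out, and ubq/l40e/arp2_g2911 in nano_high against silica was -0.03 with that covariate and -0.13 without the 5 libraries. The cause was not tested. s36 had 7 counts in all and was not tested. In the simulation of nano_high against control, 43 of 100 simulated 1.5-fold differences were recovered. Its names varied apart from each other, while the mitochondrial names tended to be high or low together in a library. The rate was not simulated for the members, nor for nano_low or silica.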
